A study of Homo sapiens with 3 samples.

Results

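Genes for the vesicle coats and the protein translocation machinery of the secretory pathway were described in an eCLIP of mouse PXR. They were the protein-coding genes of the RefSeq table of GRCh38.p14 whose symbols follow the COP, SEC, SSR, SRP and TRAPPC series, plus ARCN1. The rule gave 64 of 20037 coding genes on chromosomes 1 to 22, X and Y. A peak belonged to a gene when its centre lay in the gene span, which gave 113 of the 20919 peaks on these chromosomes.

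In eCLIP, RNA bound to a protein is crosslinked by UV light, precipitated with the protein and sequenced. LS174T cells, a human colon adenocarcinoma line, had been transfected for 24 h with HA-tagged mouse Pxr, the pregnane X receptor, which as a transcription factor responds to drugs and bile acids. There was 1 input library and 2 immunoprecipitate replicates of these cells, all 3 carrying the same construct, and cells without it were not analysed here. Antibodies against PXR, HA and IgG are named in the protocol, without saying which served for which library. Crosslinking used 254 nm light at 400 mJ/cm2. The data were 1 list of peaks with no values of single libraries, so the values below carry no replicate error, and the immunoprecipitates could not be tested against the input. Colon epithelial and goblet markers, taken from a list, had a peak in 12 of 14 genes, with deepest summits of 36 to 1147 reads. None of 6 hepatocyte markers and none of 6 blood markers had one, and 1 of 6 fibroblast and endothelial markers, COL1A2, had one with 10 reads.

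Proteins for secretion enter the endoplasmic reticulum cotranslationally. The signal recognition particle binds a signal peptide as it leaves the ribosome and brings the ribosome to the SEC61 channel, where the TRAP complex assists translocation and signal peptidase removes the peptide. COPII coats then bud vesicles from the endoplasmic reticulum towards the Golgi, COPI coats return vesicles from the Golgi, TRAPP complexes tether vesicles and activate RAB GTPases, and SEC22B is a SNARE of this traffic. Goblet cells of the colon secrete mucins and use this pathway heavily. The symbols also took in 6 SEC14-like genes, which code for lipid-binding proteins and for no coat or translocon part.

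Several of the peaks with the highest fold lay just after a gene's first base. The starts of the 8 members with the highest fold within 350 bases of the first base are therefore shown. Each sequence is from RefSeq (GRCh38.p14), 5′ to 3′ on the gene strand. It holds 60 bases before the start in lower case and the first 30 transcribed bases in capitals.
SSR1, chr6:7313170-7313259, minus strand: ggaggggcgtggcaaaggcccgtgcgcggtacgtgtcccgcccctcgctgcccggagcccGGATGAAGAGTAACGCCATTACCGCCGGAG
TRAPPC10, chr21:44012249-44012338, plus strand: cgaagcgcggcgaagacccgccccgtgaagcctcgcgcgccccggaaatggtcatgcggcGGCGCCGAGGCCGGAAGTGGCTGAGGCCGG
COPE, chr19:18919358-18919447, minus strand: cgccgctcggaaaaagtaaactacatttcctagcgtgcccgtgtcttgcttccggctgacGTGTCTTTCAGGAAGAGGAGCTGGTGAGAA
SRP54, chr14:34982932-34983021, plus strand: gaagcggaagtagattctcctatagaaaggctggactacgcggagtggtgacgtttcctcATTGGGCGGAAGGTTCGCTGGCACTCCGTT
SEC22B, chr1:120176491-120176580, minus strand: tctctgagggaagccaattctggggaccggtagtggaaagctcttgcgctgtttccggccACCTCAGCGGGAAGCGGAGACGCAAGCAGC
SEC63, chr6:107958179-107958268, minus strand: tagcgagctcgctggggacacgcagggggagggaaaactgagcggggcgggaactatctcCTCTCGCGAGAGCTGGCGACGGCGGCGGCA
COPB1, chr11:14499782-14499871, minus strand: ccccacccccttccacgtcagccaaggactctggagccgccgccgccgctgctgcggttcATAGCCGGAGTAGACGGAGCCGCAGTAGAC
SSR3, chr3:156555088-156555177, minus strand: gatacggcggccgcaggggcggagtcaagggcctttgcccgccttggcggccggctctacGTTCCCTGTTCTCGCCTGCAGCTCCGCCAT

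The upstream edges of these 8 peaks lay 13 bases (COPB1), 18 (SSR3), 22 (COPE), 25 (SSR1), 59 (TRAPPC10), 85 (SEC22B), 107 (SRP54) and 128 bases (SEC63) after the first base. In the first 4 of these the peak began within the capitals, and in the others after them. The first 50 transcribed bases of these genes were 56.0% G or C in COPE and 80.0% in TRAPPC10 and SEC63.

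Most of the genes were in the list. Of the 64 members, 47 held a peak (73.4%, Wilson 95% interval 61.5 to 82.7%), against 41.6% of all coding genes. Without the SEC14-like genes, 47 of 58 held one (81.0%, 69.1 to 89.1%). All 17 members without a peak can be named: COPG2, COPZ2, SEC16B, SEC31B, SEC61A2, SRP9, SEC22A, TRAPPC2B, TRAPPC2L, TRAPPC3L, TRAPPC13 and SEC14L1 to SEC14L6. Whether those genes are expressed in these cells was not measured, so that nothing about binding follows from a missing peak. The list does not tell RNA abundance and binding apart.

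The members' share was above that of coding genes of like length in each class of length. Of the 10 members under 10 kb, 8 had a peak (80.0%, Wilson interval 49.0 to 94.3%), against 28.1% of coding genes of that length. In the class from 10 to 30 kb it was 14 of 20 members (70.0%) against 42.0%, and from 30 to 100 kb 21 of 28 (75%) against 49.7%. At 100 kb or more, 4 of 6 members had a peak (66.7%) against 50.3%, which lies within the members' interval, up to 90.3%. Proteasome subunit genes, taken by symbol, had one in 38 of 48 (79.2%, 65.7 to 88.3%), and RAB GTPase genes in 35 of 63 (55.6%, 43.3 to 67.2%). Both intervals overlap that of all 64 members. Without the SEC14-like genes the members' interval, 69.1 to 89.1%, still overlaps that of the proteasome genes but lies above that of the RAB genes. No genes were left out of the RAB set, so these sets were not trimmed alike, and the difference was not tested. A share as high as the members' was thus also seen in proteasome genes, and is not particular to the members.

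**Figure D1:**
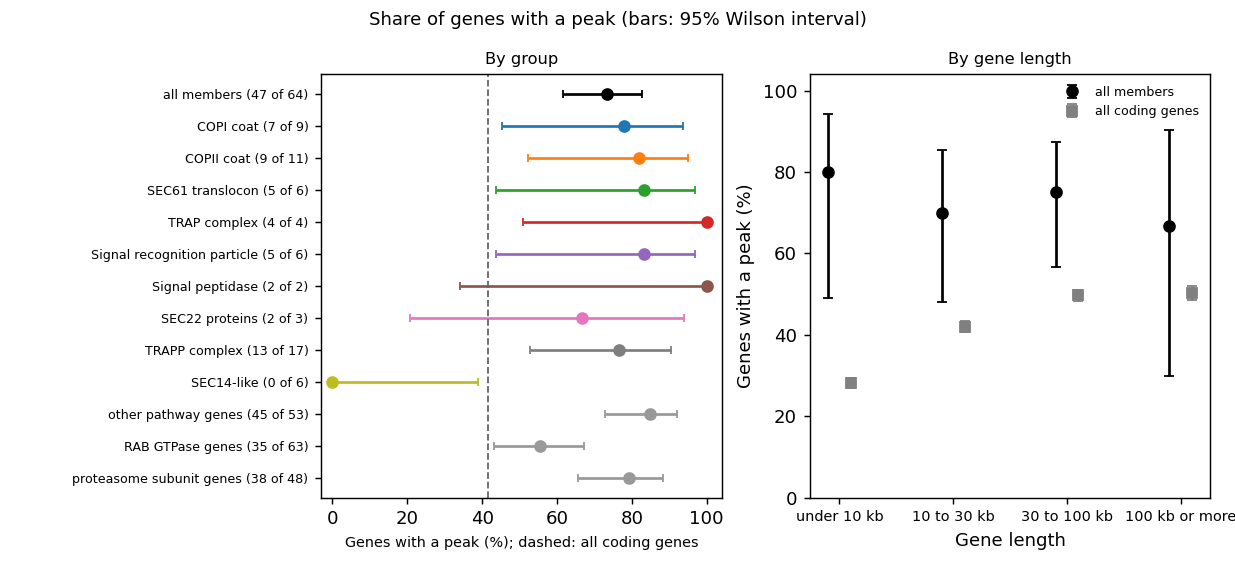
Percent of genes with a peak, by group of members and for other gene families (left, number of genes in brackets) and by gene length (right), with 95% Wilson intervals as bars. The dashed line marks 41.6% of all coding genes, which lies below the share of every group of members except the SEC14-like genes, at 0 of 6, but within the intervals of the signal peptidase and SEC22 genes.

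The member peaks were about as deep and as wide as those of all coding genes, with a higher median fold. The reads under each summit were recovered from the authors' fold and −log10 p, and the fold is the summit set against the reads of its 10 kb. Whether those background reads came from the immunoprecipitate or from the input is unknown. The fold and q therefore cannot be read as enrichment over input. Member summits held a median of 20.0 reads (quartiles 15.0 and 34.0, range 6 to 236), against 22 for all coding-gene peaks. The median fold was 6.96 (quartiles 5.64 and 8.33, range 2.74 to 21.0), against 5.93, the median −log10 q was 11 against 9.18, and the 10 kb around the summit held a median of 97 reads against 130. The median width was 255 bases against 268. A summit of 20 reads has an exact Poisson interval of 12.2 to 30.9 reads, so single summits near the median cannot be ranked. These intervals cover counting error only, since PCR copies are not independent molecules.

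**Figure D2:**
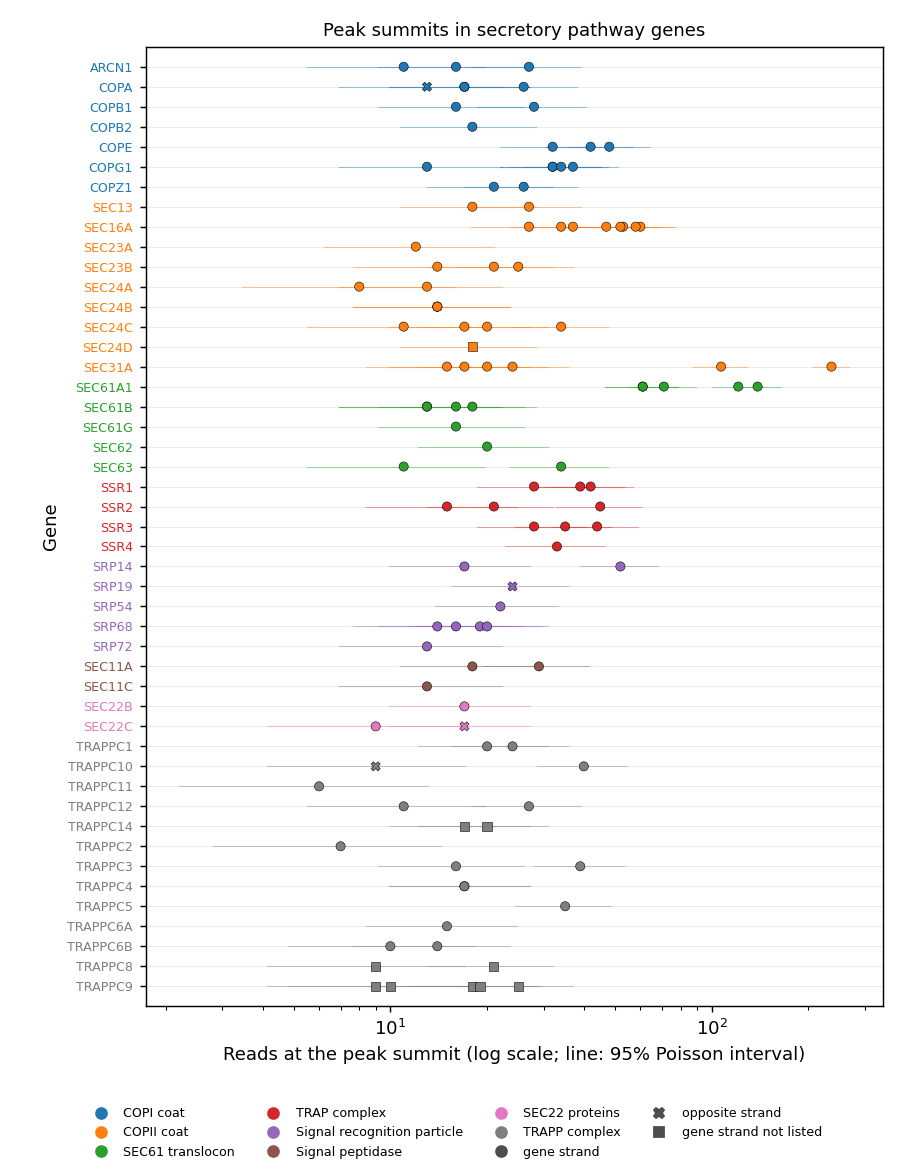
Reads at each of the 113 peak summits (log axis), 1 row per gene with a peak, coloured by group, with 95% Poisson intervals as lines and marker shape for the strand. SEC31A and SEC61A1 have the only summits above 100 reads, 2 in each gene, and most other summits lie between 10 and 60 reads.

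The signal recognition particle had a peak in 5 of its 6 protein genes, and in 4 of them on the strand of the gene. SRP14, which with SRP9 forms the domain that slows translation, had the deepest at chr15:40036053-40036433, with 52 reads (Poisson interval 38.8 to 68.2) at a fold of 15.4. That summit held 42.6% of the reads in its 10 kb, and a second SRP14 peak of 17 reads lay near the start. SRP54, the GTPase that binds signal peptides, had 1 peak of 22 reads at a fold of 12.6, with 53.7% of its 10 kb under the summit. SRP68 had 4 peaks of 14 to 20 reads, spread from 571 bases after its start to 750 bases before its downstream end. SRP72, its partner, had 1 of 13 reads.

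SRP19 is in the count only by position. Its 1 peak, of 24 reads at a fold of 11.5, lay on the minus strand, while SRP19 is transcribed from the plus strand and REEP5, which overlaps it there, from the minus strand. No peak lay in SRP9, and a peak of 10 reads lay where the pseudogene SRP9P1 overlaps TNKS2. In all, 14 members have pseudogene copies listed by symbol, 30 copies in total, and 4 copies held a peak. Each of these 4 peaks also lay in a further gene, DPYD, SMCO4, TULP4 or TNKS2. How reads were split between a gene and its copies is not stated. The RNA of the particle is made from RN7SL1, RN7SL2 and RN7SL3, and no peak overlapped any of them, while 1 peak overlapped any of 684 RN7SL pseudogenes. The treatment of reads with several alignments is not stated either.

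The SEC61 channel had peaks in 5 of 6 genes, and SEC61A1 stood far above the rest. SEC61A1, for the pore-forming subunit, held 5 plus-strand peaks with 61, 121, 61, 71 and 139 reads in order along the gene. It ranked 209 of the 8329 coding genes with a peak by its deepest summit, while its close relative SEC61A2 held none. The 4 downstream peaks lay within 2 kb of the end of the gene, at folds of 2.74 to 6.36, and the 10 kb there held 1050 to 1115 reads. The first peak, at chr3:128052453-128052731, had the highest fold of the gene, 14, and its 10 kb held 171 reads. The downstream 4 lay inside RUVBL1 as well, but RUVBL1 is on the minus strand and the peaks were on the plus strand.

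The smaller channel subunits and accessory proteins were shallower. SEC61B had 4 peaks in 8334 bases with 13, 13, 16 and 18 reads, and SEC61G had 1 of 16 reads, 32 bases from its downstream end. SEC63, which with SEC62 helps proteins that enter after synthesis, had a start peak of 34 reads at a fold of 11.8 and another of 11 reads. SEC62 had 1 of 20 reads. The Poisson intervals of the SEC61B, SEC61G and SEC62 summits all overlap, and none reaches the lowest SEC61A1 interval, which starts at 46.7 reads. That of the SEC63 start peak, 23.5 to 47.5 reads, does.

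TRAP was the one complex of more than 2 genes with a peak in every gene. SSR1 had summits of 42, 28 and 39 reads from its downstream to its upstream end. SSR2 had 45, 15 and 21 reads in the same order, SSR3 had 44, 28 and 35, and SSR4 had 1 peak of 33 reads close to its downstream end. The deepest summits of the 4 genes, 33 to 45 reads, have overlapping Poisson intervals, so the 4 subunits were not told apart by depth. Their median of 34.0 reads over 10 peaks was above the 22 of all coding-gene peaks, with no test. Both SEC11 genes, for signal peptidase subunits, had peaks, SEC11A with 29 reads at its downstream end and 18 at its start, and SEC11C with 13 at its start.

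COPII genes carried the most peaks, 30 in 9 of 11 genes. SEC16A, the scaffold of the sites where these vesicles form, held 8, the most of any member, with 27 to 60 reads. Their folds of 3.20 to 6.52 were low, and each had 323 to 779 reads in its 10 kb, more than the median of 97 around member peaks. SEC31A, for the outer coat, held 6 peaks with 15, 24, 20, 17, 236 and 107 reads from its downstream end towards its start. The summit of 236 reads (207 to 268), at chr4:82895680-82895909, was the deepest and had the highest fold, 21.0, of all members. It ranked SEC31A 82 of 8329.

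Both deep SEC31A peaks may belong to another transcript. They lay in the lncRNA gene THAP9-AS1 as well, which is on the same minus strand, so the list does not assign them to one of the genes. The 4 peaks of SEC31A in no other gene held 15 to 24 reads, within the range of the other COPII genes. Of the inner coat, SEC23A had 12 reads in 1 peak and SEC23B 25, 21 and 14 in 3. Among the 4 cargo adaptors, SEC24C had 4 peaks and the deepest summit, 34 reads (23.5 to 47.5), SEC24B 3 peaks of 14 reads each, SEC24A 13 and 8 reads, and SEC24D 1 peak of 18. SEC13, shared with the nuclear pore, had 27 and 18 reads.

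COPI had a peak in 7 of 9 genes, and each of the 7 subunit types of the coat was represented. COPE had 32, 42 and 48 reads, the deepest of the coat, and its start peak reached a fold of 13.2. COPG1 had 5 peaks with 13, 32, 32, 34 and 37 reads along the gene, while its relative COPG2, longer at 162511 bases, had none. COPA had 26, 17 and 17 reads on its own strand, ARCN1 11, 16 and 27, and COPB1 a start peak of 28 and an interior one of 16. COPB2 had 1 of 18. COPZ1 had 26 and 21 reads, both where GPR84 overlaps it, and its relative COPZ2 had none.

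Relatives within a family were unequal in this way elsewhere too. SEC16A held 8 peaks against 0 in SEC16B, SEC31A held 6 against 0 in SEC31B, SEC61A1 held 5 against 0 in SEC61A2, and TRAPPC3 held 2 against 0 in TRAPPC3L. In contrast SEC23A and SEC23B, the 4 SEC24 genes, SEC11A and SEC11C, and TRAPPC6A and TRAPPC6B each had a peak in every member. These are counts of 1 list, with no test, and expression of the relatives was not measured.

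TRAPP had a peak in 13 of 17 genes, with a median of 17.0 reads over 25 peaks. The deepest were TRAPPC10 with 40 reads at its start and TRAPPC3 with 39 reads at a fold of 17.1, the second highest of the members. TRAPPC5 had 35 reads at a fold of 12.9, in 1 peak 588 bases wide. TRAPPC9 held 5 peaks of 9 to 25 reads, all on the minus strand, but it spans 730855 bases, and that made 0.0684 peaks per 10 kb against 12.1 for TRAPPC1, the shortest. The lowest summit of all members was that of TRAPPC11, with 6 reads (2.20 to 13.1). TRAPPC2 had 7 reads where OFD1 overlaps it, and it has 8 pseudogene copies besides the related TRAPPC2B. SEC22B, a SNARE, had 17 reads, all in 1 start peak, and the related SEC22C had 9 reads on its own strand.

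The peaks followed the strand of the gene. Gene strand was taken from the RefSeq promoter table, which lists 60 members and 15843 coding genes. SEC24D, TRAPPC8, TRAPPC9 and TRAPPC14 were not among them. Of 103 peaks in members with a strand, 99 lay on it (96.1%, Wilson interval 90.4 to 98.5%), against 94.3% over all coding genes, which lies within the interval. Where a peak lay in no other gene, 87 of 87 member peaks were on the gene strand, against 98.4% over all coding genes. The 4 opposite-strand peaks each lay in a further gene. These were SUMO1P3 in COPA, with 13 reads, the start of NKTR at SEC22C, with 17 reads, REEP5 at SRP19, with 24 reads, and H2AZP1 in TRAPPC10, with 9 reads. NKTR and REEP5 are on the strand of the peak, and the strands of SUMO1P3 and H2AZP1 are not in the table.

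Of the peaks, the shares near the start and near the downstream end had intervals that include those of all coding genes, while the shares of genes with a peak at either end were above them. Of the 99 same-strand peaks, 25 had their centre within 1 kb of the start (25.3%, Wilson interval 17.7 to 34.6%), against 25.4% of all coding-gene peaks. Within 1 kb of the downstream end lay 22 (22.2%, 15.2 to 31.4%), against 15.7%, and 52 lay between. Per gene, 24 of 60 members with a strand had a start peak (40.0%, Wilson interval 28.6 to 52.6%), against 24.1% of coding genes. A peak at the downstream end was held by 21 (35.0%, 24.2 to 47.6%), against 14%, and both by 11 (18.3%, 10.6 to 29.9%), against 6.92%. The per-gene shares count genes with no peak too, which were a smaller share of the members. The 11 were ARCN1, COPE, COPG1, SEC11A, SEC61A1, SEC61B, SRP14, SRP68, SSR2, TRAPPC1 and TRAPPC4. TRAPPC1 spans only 1655 bases, so any peak in it lies within 1 kb of an end.

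**Figure D3:**
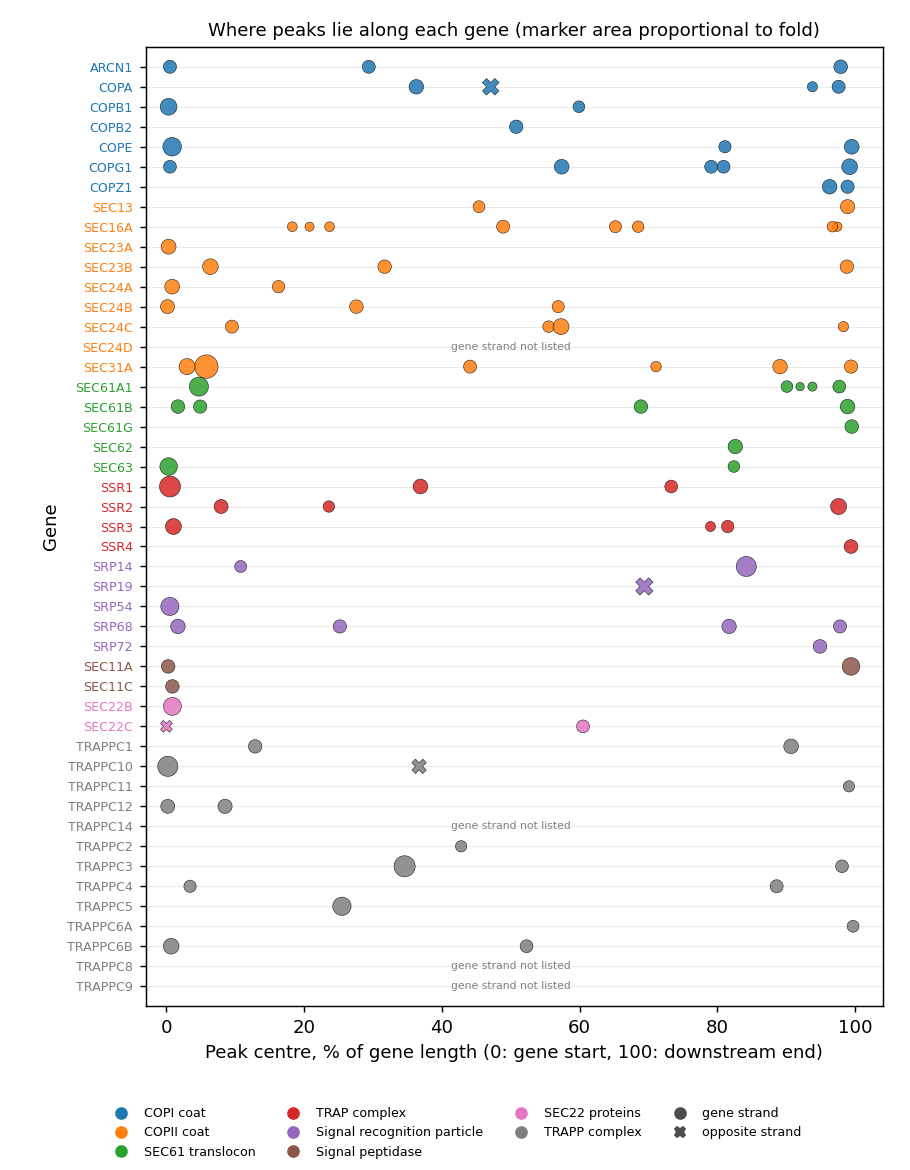
Position of each peak centre as a percent of gene length from the gene start (0) to the downstream end (100), 1 row per gene, with marker area proportional to fold and crosses for peaks on the opposite strand, and no marker for the 4 genes with no listed strand. Of the 99 same-strand peaks, 25 lie within 1 kb of the start and 22 within 1 kb of the downstream end. Large markers at the left edge include the start peaks of SSR1, TRAPPC10, COPE, SRP54, SEC22B, SEC63 and COPB1. That of SEC61A1 lies slightly further right.

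Start peaks had a higher fold but were not deeper. Some members have more than 1 listed start, though most have 1, so the distance to the nearest listed start before the peak was used as well. By that measure 22 of the 99 same-strand peaks had their centre within 350 bases of a listed start (22.2%, Wilson interval 15.2 to 31.4%, all coding genes 20.5%), at distances of 127 to 312 bases. Their median fold was 9.02 against 6.52 for the other 77, while their median reads were 17.5 against 21.0, and the 10 kb around them held a median of 64 reads against 115. Over all coding genes the same values were 7.78 against 5.58, 19 against 22, and 72 against 150. The fold divides the summit by the background of its 10 kb. With summits no deeper, the higher median fold at starts thus reflects a lower background and not more reads at the peak. Part of those 10 kb lies before the gene, and how far this lowered the background was not tested.

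Of the 10 same-strand member peaks with the highest fold, 7 followed a listed start. SSR1 reached a fold of 16.8 at 173 bases, with 56.5% of the reads of its 10 kb under the summit. TRAPPC3 reached 17.1 at 174 bases from an inner start, 6741 bases into the gene. TRAPPC10 reached 15.6 at 213 bases, SEC61A1 14 at 155 bases from its second listed start, and COPE 13.2 at 169 bases. SRP54 reached 12.6 at 245 bases, and SEC22B 12.3 at 227 bases, with 73.9% of its 10 kb under the summit. The 3 others were the SEC31A peak in THAP9-AS1, SRP14 and TRAPPC5. With a fold of 10 or more there were 13 same-strand peaks, 9 of them after a listed start (69.2%), against 53.7% of such peaks over all coding genes. The member share rests on these 13 peaks only, is given without an interval, and its difference from 53.7% was not tested.

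**Figure D4:**
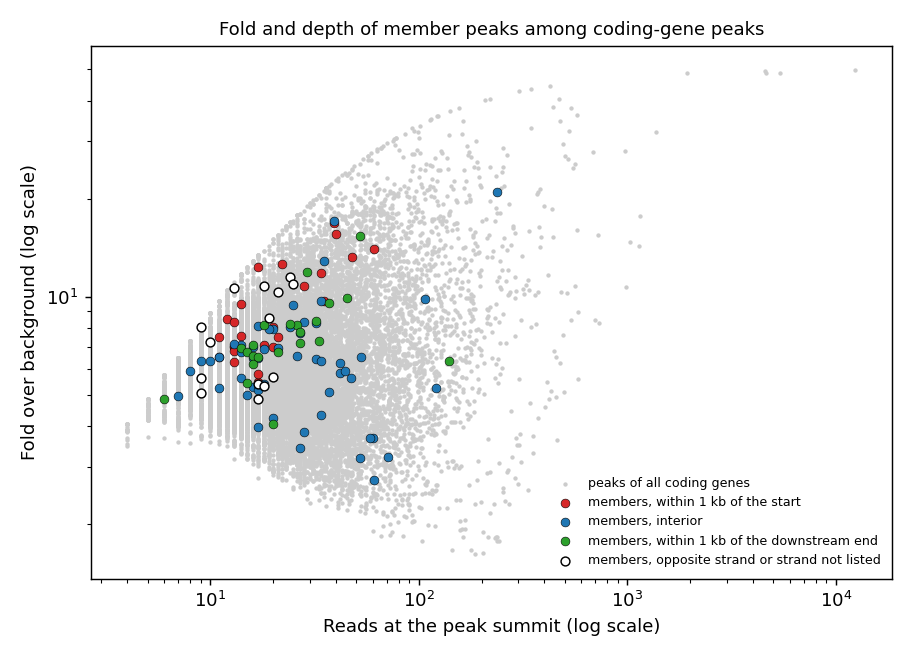
Fold over background against summit reads (both log axes) for all coding-gene peaks (grey) and for the 113 member peaks, coloured by position in the gene. Start peaks sit in the upper left part of the member cloud, with a median fold of 8.08 and 17.0 reads, and interior peaks lower, with a median fold of 6.33 and 25.5 reads.

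The promoters shared a short sequence more often than promoters at large. The RefSeq window runs from 250 bases before to 50 after the first listed start. The letters ACGTG, on either strand, are the core of elements known to be bound by the unfolded protein response factors XBP1 and ATF6, which raise secretory capacity. They were found in 32 of 60 member windows (53.3%), against 23.7% of all 15843 coding windows and 27.9% of coding genes with a peak. By group this was 8 of 9 COPI genes, 8 of 10 COPII genes, 3 of 4 TRAP genes and 3 of 6 channel genes, but 4 of 14 TRAPP genes and 2 of 6 genes of the signal recognition particle. Within 100 bases before the start they were in 17 of 60 members (28.3%) against 10.4% of all windows. Members with a peak had the letters in 25 of 43 windows and members without one in 7 of 17. A match is a description of the letters. It is no measured site and does not tell which factor, if any, binds there.

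The ER stress response element, searched on both strands, is a separate motif whose letters need not include ACGTG. It was in none of the 60 member windows and in 0.114% of all windows. The nuclear receptor half-site AGGTCA, the repeat unit of the DNA elements of PXR, was in 6 of 60 member windows (10.0%) against 11.8% of all. Of the 43 members with a peak, 2 had it, ARCN1 and SEC16A, and of the 17 without, 4 had it, SEC14L2 to SEC14L5. No overlap between these motifs was removed. These are DNA letters, while the peaks are of RNA.

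The matches of ACGTG nearest to the first listed start, within 100 bases before it, are shown for the 12 members with a peak that have one, since coat genes make up most of them. The match is in capitals, with up to 15 bases on each side and none after the listed start, 5′ to 3′ on the gene strand (RefSeq, GRCh38.p14). The listed start of SEC24A lies inside the gene span, so its stretch lies after the first base of that span. CACGT is the match on the other strand, and CACGTG is a match on both.
ARCN1, chr11:118572376-118572408, plus strand: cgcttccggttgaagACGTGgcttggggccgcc
COPB1, chr11:14499839-14499873, minus strand: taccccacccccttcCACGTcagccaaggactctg
COPB2, chr3:139389744-139389778, minus strand: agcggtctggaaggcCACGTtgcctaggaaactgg
COPG1, chr3:129249583-129249605, plus strand: gcagagcgctgggcgACGTGgcc
SEC11C, chr18:59139827-59139862, plus strand: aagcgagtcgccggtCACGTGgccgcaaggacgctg
SEC16A, chr9:136484788-136484823, minus strand: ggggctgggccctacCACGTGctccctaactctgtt
SEC24A, chr5:134648728-134648763, plus strand: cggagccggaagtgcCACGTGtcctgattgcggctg
SEC24C, chr10:73744285-73744319, plus strand: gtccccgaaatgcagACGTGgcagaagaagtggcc
SEC31A, chr4:82900598-82900632, minus strand: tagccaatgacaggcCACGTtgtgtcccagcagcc
SEC62, chr3:169966776-169966806, plus strand: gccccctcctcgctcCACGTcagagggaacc
SEC63, chr6:107958260-107958294, minus strand: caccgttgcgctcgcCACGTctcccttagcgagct
SSR1, chr6:7313210-7313244, minus strand: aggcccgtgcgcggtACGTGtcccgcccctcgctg

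COPI and COPII genes gave 8 of the 12. Among the stretches shown, those of SEC11C, SEC16A and SEC24A hold the palindrome CACGTG. SSR1 has one too, farther from its start than the stretch shown. The 12 genes held between 1 peak (COPB2, SEC11C, SEC62) and 8 peaks (SEC16A).

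First transcribed bases of members with a start peak were not richer in G and C than those of other members. The median G and C content of the first 50 bases was 63.0% (upper quartile 69.0%) in 24 members with a start peak and 66.0% (lower quartile 58.0%) in 36 without. Over all coding genes it was 68.0% in 3822 genes with a start peak and 62.0% in 12021 without, so the order was the other way round. The quartiles of the members overlap, and no test was made.

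Other genes of the pathway, from a list, also held peaks in most cases. They are receptors, regulators and partner enzymes, such as the GTPases SAR1 and ARF1 that start the coats and the oligosaccharyltransferase that sits beside the SEC61 channel. Of 53 found in the table, 45 had a peak (84.9%, Wilson interval 72.9 to 92.1%), beside 73.4% of the members (61.5 to 82.7%), and the difference was not tested. Their 121 peaks had a median fold of 6.84, beside 6.96 in the members, and a median of 29.0 reads, beside 20.0. The deepest was ARF1, the GTPase of the COPI coat, with 129 reads (108 to 153) at its downstream end. RPN1, of oligosaccharyltransferase, had 7 peaks and a summit of 113 reads at a fold of 25.4, above the fold of any member. KDELR1, the receptor that retrieves resident proteins in COPI vesicles, had 99 reads at a fold of 18.4, STT3B, a catalytic subunit of oligosaccharyltransferase, had 95, and the cargo receptor SURF4 had 77. The 8 without a peak were SAR1B, ARFGAP3, BET1, GOSR1, BNIP1, USE1, RINT1 and ZW10. Among these, BET1, GOSR1, BNIP1 and USE1 are SNAREs.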

How the data were processed

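The authors deposited 1 peak list, made with cutadapt, BWA and MACS2 on hg38 per the submitters' processing notes, whose versions and settings are not given in the sources used here. Whether both replicates were pooled is not given either. The deposited score equals the integer part of 10 times the −log10 q in each of the 21031 peaks. Fold, as the authors deposited it, is a ratio of summit over background reads after adding 1 to each, and the deposited −log10 p and −log10 q (lowest 1.31) are those of its p-value and q-value. The authors' peak names show that strands were called apart. The last deposited column is the summit's distance from the peak start.

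From fold and −log10 p, the whole number of summit reads and the background were solved for, and the result returned the deposited −log10 p to 0.0001 (with a relative tolerance of 0.00001) for 21028 peaks of 21031. The solver was also run on 2000 summits simulated with the same formulas, and all 2000 were recovered. That checks the solving only, and not whether the formulas describe the deposited values. The background is a count in 10 kb scaled to 200 bases, or a common level (0.286 plus strand, 0.236 minus strand). At the common level lay 1 member peak, and no 10 kb count is given for it. In 21004 of the 21031 peaks the background was a whole number of reads in 10 kb or the common level. The library that supplied it is unknown. Percentages of the 10 kb under a summit take summit and background as reads of the same library, which was not tested. Library depth is unknown.

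Peaks were joined to RefSeq gene spans, whose build GRCh38.p14 has the same chromosome coordinates as hg38. Exons were not used. Strand, starts and promoter sequence came from the RefSeq promoter table. Python 3.11.15, pandas 2.3.3 and scipy 1.17.1 were used. All members without a peak were named, with the 10 genes of deepest summit, the 10 highest folds, the 10 genes with most peaks and up to 4 further genes per group by depth, and further members were named after their values were seen. The pathway list named 5 by depth, and the 8 without a peak were named after their values were seen. Members and lists were chosen with earlier results of these data known, and the motifs and strand results after the data were seen. One listed pathway symbol, CTAGE5, was not found in the table. No test was made, because peaks and genes are not replicates.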

Additional observations from a re-analysis of the deposited data

How the results depend on the processing

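The count of 47 member genes with a peak stayed between 38 and 47 under the 9 alternatives tried for it, and counting a gene by any overlap of 1 base also gave 47. The share of all coding genes under each alternative is not given, so these counts do not show how the difference from 41.6% changes. With only same-strand peaks the count was 42. SEC24D, TRAPPC8, TRAPPC9 and TRAPPC14, with no listed strand, could not enter it. With only peaks at or above the list's median −log10 q of 9.14, member peaks fell from 113 to 67, their median fold was 8.18 and their median reads 28.0. Without peaks at most 2 bases wider than 200 bases the median fold was 7.50 and the median reads 25.0. With only peaks in 1 gene, 100% of member peaks lay on the gene strand, and with ends of 500 bases in place of 1 kb, 35.4% of member peaks lay near an end in place of 46.0%. The last setting, the strand results and leaving out the SEC31A peaks in THAP9-AS1 were chosen after seeing the data. No paired analysis was possible because the list has no values of single libraries, and for the same reason no replicate could be left out.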
